A study of Mus musculus with 8 samples.

Results

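Cluster 10 of the annotated β-cells is the smallest of 3 clusters into which the authors divided the insulin-producing cells of isolated mouse islets. Its members were the cells whose deposited cell type was β-cell and whose deposited cluster number was 10. They numbered 236 of 2412 annotated β-cells and of 6959 cells in all, with 121 of 3776 cells in the vehicle library and 115 of 3183 in the FAKi library. Clusters 0 and 1, with 1325 and 851 cells, hold the other annotated β-cells and serve as the comparison.

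A mature islet cell is known mainly by the hormone it secretes. β-cells make insulin, which mice encode in the gene pair *Ins1* and *Ins2*, and co-secrete amylin from *Iapp*. α-cells make glucagon (*Gcg*), δ-cells somatostatin (*Sst*) and PP-cells pancreatic polypeptide (*Ppy*), while the related peptide YY (*Pyy*) is found in several islet cell types. Cells that hold transcripts of more than a single islet hormone are well known from the fetal pancreas and are rarer in adult islets, where droplets that capture cells of different types can give the same picture.

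The islets came from wild-type mice, which carry no lineage reporter and were 6 to 12 weeks old when the experiments began. FAKi, the focal adhesion kinase inhibitor PF-562271, was given by oral gavage over 3 weeks in 2 daily doses of 50 mg/kg, the control mice received vehicle, and islets were isolated 10 days after the last dose. Islets of 5 mice, about 1200 per cohort, were pooled into 1 library per condition, and each library is taken to have been run on 4 sequencing lanes, which make up the 8 samples of the series. Neither lanes nor cells are replicates, so no test between conditions or clusters was made, and every interval here covers counting error only.

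In cluster 10 the median vehicle cell held 24960 unique molecular identifiers (UMIs, 1 for each captured transcript) from 4271 genes, and the median FAKi cell 26713 from 4171 genes. Its depth lay between that of cluster 0 (median 34677 and 34237 UMIs) and that of cluster 1 (20070 and 16908 UMIs). The doublet caller scrublet marked 30 of the 236 cells (12.7%), 12 of the vehicle and 18 of the FAKi library, against 0 of 1325 cells of cluster 0 and 10 of 851 cells of cluster 1 (1.18%). The libraries shared 4 cell barcodes, of which 0 were in cluster 10. Levels are given as CPM, the UMIs of a gene scaled to the UMIs of the cell or, for a group, to its summed UMIs, so that 10000 CPM is 1% of them, and pairs of values are in the order vehicle, FAKi.

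The insulin genes were the main transcripts of cluster 10, as its label requires. *Ins2* (GRCm38 chr7:142678656-142743381, minus strand) had a median of 330588 CPM per cell for vehicle and 348320 CPM for FAKi. *Ins1* (chr19:52264297-52265476) stood at 133501 and 128861 CPM and *Iapp* at 30354 and 37482 CPM. Only 7 of 236 cells (2.97%, Clopper-Pearson 95% interval 1.201 to 6.016%) had less than 100000 CPM of *Ins2*, of which 2 were vehicle cells and 5 FAKi cells. In summed UMIs, *Ins1* reached 133080 and 130447 CPM in cluster 10 against 162182 and 159776 CPM in cluster 0. *Ins2* reached 337886 and 333548 CPM against 401354 and 408223 CPM. Both insulin genes therefore stood somewhat lower in cluster 10 than in cluster 0, in both libraries.

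Transcripts of the other islet hormones set cluster 10 apart from the other β-cells. In summed UMIs, *Ppy* (chr11:102099930-102101319, minus strand) stood at 15096 and 12054 CPM in cluster 10, against 57.5 and 79.0 CPM in cluster 0. *Pyy*, which lies beside *Ppy* (chr11:102106676-102107832, minus strand), stood at 9134 and 7235 CPM against 32.7 and 31.9 CPM. *Gcg* (chr2:62474530-62483650, minus strand) stood at 10276 and 11956 CPM against 88.8 and 201.5 CPM, and *Sst* (chr16:23889573-23890958, minus strand) at 7015 and 8457 CPM against 33.9 and 73.1 CPM. These sums came from few cells. The 10 cells with the most UMIs held 93.7% and 97.9% of the *Ppy* UMIs of cluster 10, 81.0% and 89.4% of the *Pyy* UMIs, 85.3% and 82.0% of the *Sst* UMIs and 78.2% and 93.9% of the *Gcg* UMIs. The median cell had 161 and 128 CPM of *Ppy*, 151 and 193 CPM of *Pyy*, 41.9 and 95.5 CPM of *Sst* and 165 and 262 CPM of *Gcg*. Of the other peptide genes, neuropeptide Y (*Npy*) had 136 and 161 UMIs in the whole cluster. There were 0 and 1 UMIs of ghrelin (*Ghrl*), 7 and 31 UMIs of gastrin (*Gast*) and 2 and 0 UMIs of cholecystokinin (*Cck*).

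**Figure D1:**
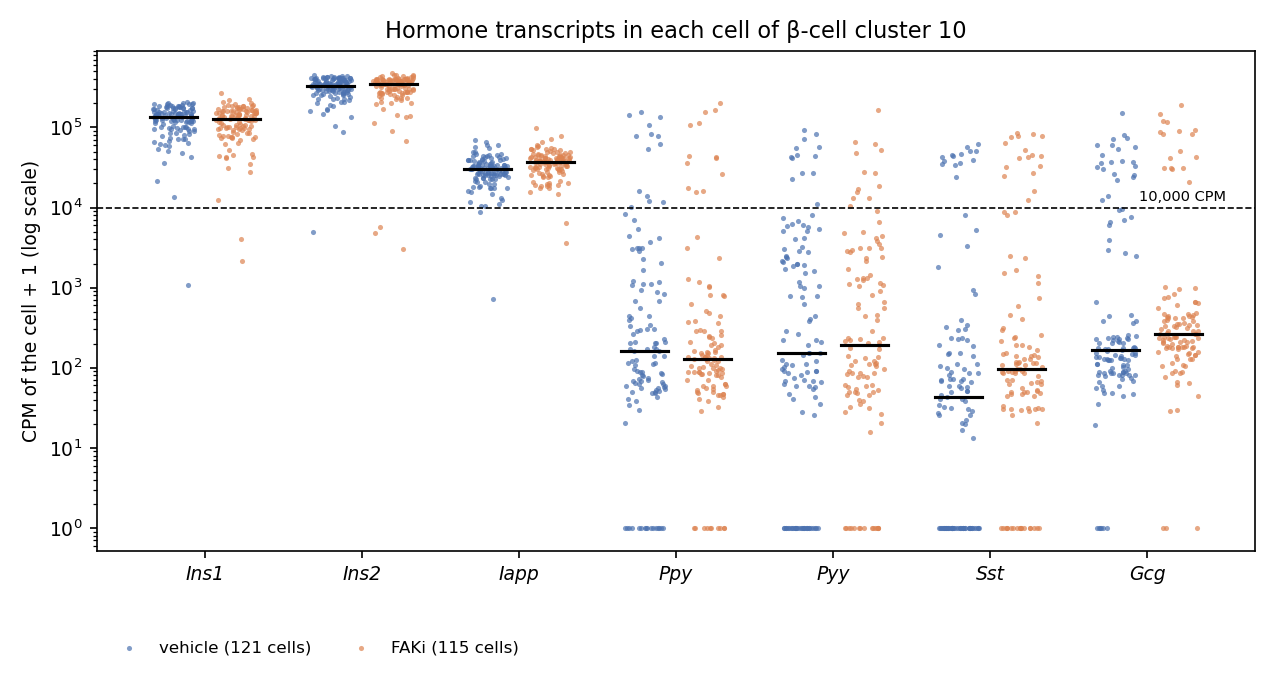
CPM of each hormone gene in each cell of cluster 10 (log scale, 1 CPM added), with 1 point per cell, 121 vehicle and 115 FAKi cells, and a bar at the median. The insulin genes and *Iapp* are high in nearly all cells. *Ppy*, *Pyy*, *Sst* and *Gcg* have medians of 41.9 to 262 CPM and some cells above 10000 CPM (dashed line). For *Pyy* the values run on through the line, with 51 cells at 3000 CPM or more and 26 at 10000 CPM or more.

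A cell was counted as carrying another hormone where that gene made up at least 10000 CPM, 1% of its UMIs. By this measure 87 of the 236 cells (36.9%, interval 30.7 to 43.4%) carried at least 1 of *Ppy*, *Pyy*, *Sst* and *Gcg*. The share was 45 of 121 cells (37.2%, 28.6 to 46.4%) in the vehicle and 42 of 115 (36.5%, 27.7 to 46.0%) in the FAKi library, and these intervals cover the counting of cells in 1 library each, not the spread between mice. In cluster 0 it was 0 of 650 and 0 of 675 cells, for which the limit that 3 counts set is a share of 0.462% and 0.444%. In cluster 1 it was 4 of 305 cells (1.31%) and 18 of 546 cells (3.30%), of which 17 in the FAKi library carried *Gcg*. Endothelial and immune cells, which should lack these hormones, carried one in 11 of 953 cells (1.15%) and 11 of 361 cells (3.05%). Their median depths were 5186 and 4883 UMIs, and scrublet marked 35 of the 1314. The part of free RNA and of droplets with more than 1 cell in these carriers was not tested. The share in cluster 10 lay above that of endothelial and immune cells in both libraries. In the FAKi library the 99th percentile of these cells was 35461 CPM for *Gcg* and 15170 CPM for *Pyy*, above the level of 10000 CPM, while the other hormones there and all 4 in the vehicle library had theirs below it. With every cell thinned to 5000 UMIs it was 36.8%, in the 212 cells deep enough.

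*Gcg* was carried by 22 vehicle cells (18.2%, 11.8 to 26.2%) and 17 FAKi cells (14.8%, 8.85 to 22.6%). *Sst* was carried by 14 vehicle cells (11.6%, 6.47 to 18.7%) and 17 FAKi cells (14.8%, 8.85 to 22.6%). *Ppy* was carried by 14 and 13 cells and *Pyy* by 13 and 13. At this level the intervals of the libraries overlapped for each hormone. With the 99th percentile of endothelial and immune cells of the same library as the level, *Pyy* was carried by 31 vehicle cells (25.6%) and 10 FAKi cells (8.70%), and *Gcg* by 28 (23.1%) and 12 (10.4%). The order of the hormones moved with the level and with the cells left in. *Pyy* was carried by 51 cells and *Gcg* by 46 at 3000 CPM, and *Sst* by 23 and *Gcg* by 19 in cells under 5% mitochondrial counts. In the highest cells *Ppy* reached 154495 and 199625 CPM, *Gcg* 150887 and 192841 CPM, *Pyy* 93290 and 164218 CPM and *Sst* 62615 and 85486 CPM.

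**Figure D2:**
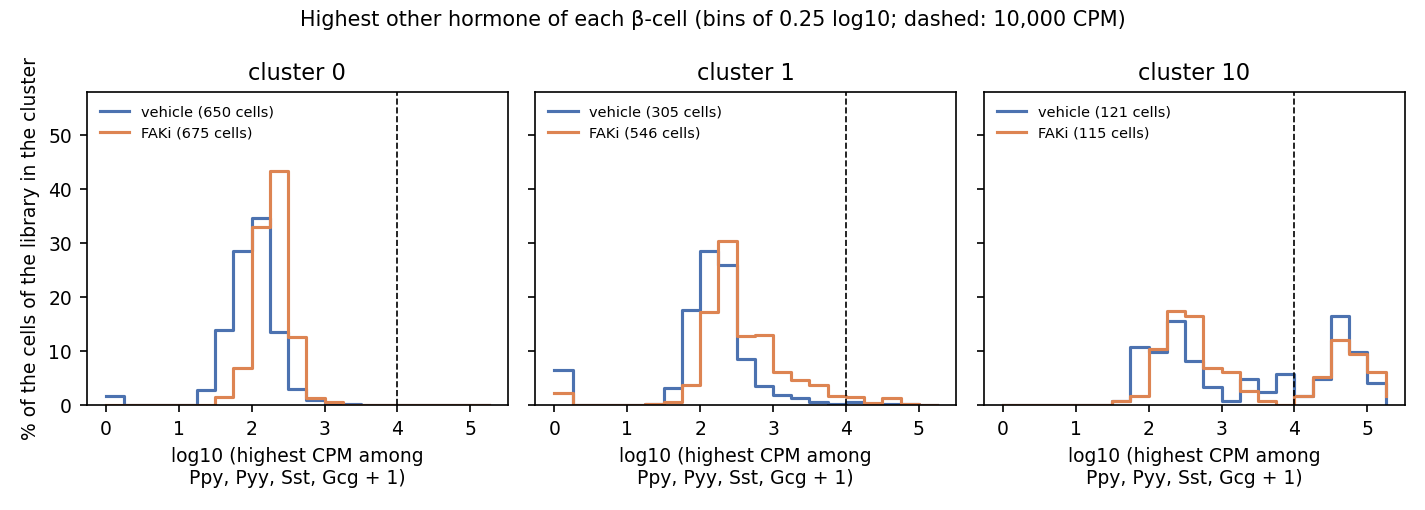
Distribution of the highest of *Ppy*, *Pyy*, *Sst* and *Gcg* in each β-cell (log10 of CPM plus 1, bins of 0.25), as percent of the cells of each library in clusters 0, 1 and 10. Cluster 10 has a second group above 10000 CPM (dashed line), with 45 of 121 vehicle and 42 of 115 FAKi cells, where cluster 0 has 0 cells.

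For the highest of the 4 hormones in each cell, the level of 10000 CPM fell in a thin stretch of the distribution. Between 5000 and 10000 CPM lay 7 cells, all in the vehicle library, and between 10000 and 20000 CPM lay 4 cells. The cell just under the level had 9479 CPM of its highest hormone and the cell just above it had 12412 CPM.

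The combinations were unevenly spread. Of the 87 cells, 54 carried 1 other hormone, 30 carried 2 and 3 carried 3. *Sst* was mostly alone (28 cells), and 26 cells carried *Gcg* alone. *Ppy* and *Pyy* were carried together without a further hormone by 17 cells, and by 3 more together with *Gcg*. *Ppy* with *Gcg* was found in 6 cells, *Gcg* with *Pyy* in 4, *Sst* with *Pyy* in 2 and *Ppy* with *Sst* in 1. No cell carried *Sst* and *Gcg* together.

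The carriers held insulin and another hormone together, and how these compared with other cells depended on whether CPM or UMIs were read. Cells were assigned to the hormone they held most of, with *Ppy* and *Pyy* taken as 1 class. The 20 vehicle and 15 FAKi *Gcg* carriers had medians of 36540 and 83128 CPM of *Gcg*, which is 12.7% and 29.2% of the median in the main α-cell cluster. The 14 and 17 *Sst* carriers had 42968 and 44583 CPM of *Sst*, 20.9% and 20.2% of the median in the *Sst*-rich δ-cell cluster. The 11 and 10 *Ppy* or *Pyy* carriers had 78757 and 75625 CPM of *Ppy*, 36.1% and 31.9% of the median in a *Ppy*-rich cluster that the authors annotated as δ-cells. Median *Ins2* was 300801 and 234848 CPM in the *Gcg* carriers, 313272 and 305637 CPM in the *Sst* carriers and 257838 and 243806 CPM in the *Ppy* or *Pyy* carriers. It was 368539 and 378378 CPM in the cells of cluster 10 without another hormone and 401746 and 411641 CPM in cluster 0. In CPM each class of carriers thus had less *Ins2* than the cells without another hormone, in both libraries. In UMIs per cell the order turned in 4 of the 6 pairs of class and library. Median *Ins2* was 9772.5 and 8030 UMIs in the *Gcg* carriers, 10482 and 10538 UMIs in the *Sst* carriers and 12730 and 5211 UMIs in the *Ppy* or *Pyy* carriers, against 7722 and 10142 UMIs in the cells without another hormone. Relative to cluster 0 these are 37.0 to 93.6% of its median *Ins2* UMIs. The carried hormone reached 29.8% and 22.3% of the median UMIs of the α-cell cluster for *Gcg*, 71.7% and 51.6% of those of the *Sst*-rich cluster for *Sst*, and 113.5% and 34.5% of those of the *Ppy*-rich cluster for *Ppy*.

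Depth and doublet calls moved with the carried hormones. The 87 carriers had median depths of 35149 and 32267 UMIs, against 21496 and 26205 UMIs in the 149 cells without another hormone. By class, the FAKi *Ppy* or *Pyy* carriers alone lay below the latter, at 23972 UMIs. Scrublet marked 9 of 45 vehicle carriers (20%) and 16 of 42 FAKi carriers (38.1%), and 3 of 76 and 2 of 73 of the other cells. By class it marked 2 of 20 and 9 of 15 *Gcg* carriers, 6 of 14 and 3 of 17 *Sst* carriers and 1 of 11 and 4 of 10 *Ppy* or *Pyy* carriers. Without the marked cells, 62 of 206 cells (30.1%) still carried another hormone, 36 of 109 vehicle cells and 26 of 97 FAKi cells. *Gcg* was then carried by 20 of 109 vehicle cells (18.3%) and 6 of 97 FAKi cells (6.19%). The part of droplets with more than 1 cell in the carried hormones was not tested beyond these values.

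**Figure D3:**
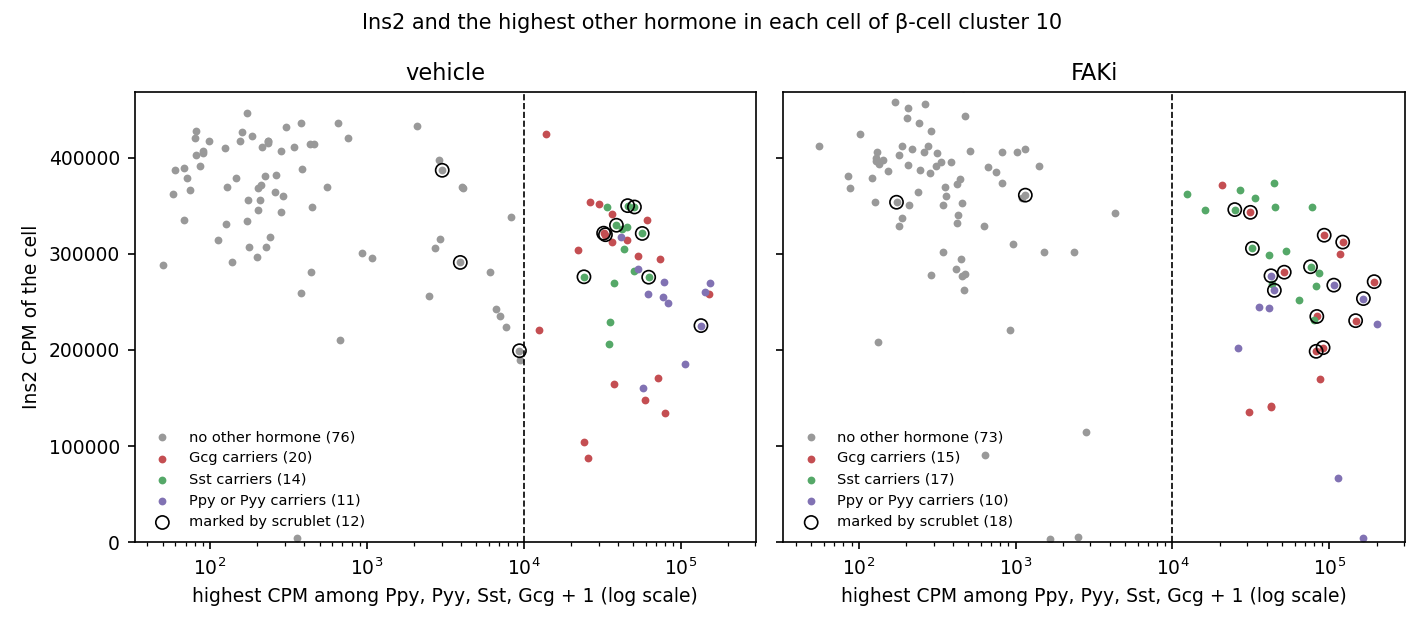
*Ins2* CPM (linear axis) against the highest of *Ppy*, *Pyy*, *Sst* and *Gcg* (log axis, 1 CPM added) in each cell of cluster 10, by library, coloured by class, with cells marked by scrublet ringed. Cells to the right of 10000 CPM (dashed line) mostly keep over 100000 CPM of *Ins2*, and 25 of the 30 ringed cells lie there.

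Each class of carriers also held transcripts that mark the matching islet cell type, in a panel of genes set up after the levels were seen. *Irx2*, an α-cell transcription factor, stood at 34.9 and 22.5 CPM in the *Gcg* carriers, against 106.3 and 116.2 CPM in the main α-cell cluster and 0.353 and 0.451 CPM in cluster 0. *Ttr*, which encodes the transport protein transthyretin and is abundant in α-cells, stood at 4279 and 6240 CPM in the *Gcg* carriers, against 273 and 382 CPM in cluster 0.

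*Hhex*, the transcription factor that maintains δ-cells, was read almost only in the *Sst* carriers, with 39 of its 42 vehicle UMIs and 82 of its 83 FAKi UMIs in cluster 10. Its level there was 72.8 and 151.1 CPM, against 399 and 475 CPM in the *Sst*-rich δ-cell cluster. *Cd24a*, a surface protein high in δ-cells, stood at 140 and 149 CPM in the *Sst* carriers and at 1.14 and 3.10 CPM in the cells without another hormone. *Rbp4*, which encodes retinol-binding protein and is abundant in δ-cells, stood at 1354 and 1815 CPM in the *Sst* carriers against 6015 and 6925 CPM in the *Sst*-rich cluster. In the *Ppy* or *Pyy* carriers, the folate receptor gene *Folr1* stood at 189 and 246 CPM and the tetraspanin gene *Tspan8* at 235 and 265 CPM, against 344 and 385 CPM and 641 and 677 CPM in the *Ppy*-rich cluster. As the panel was chosen after the values were seen, these levels are a description. *Tspan8* stood at 11.1 and 8.43 CPM in the *Gcg* carriers and 67.2 and 31.3 CPM in the *Sst* carriers, and *Folr1* at 28.5 and 28.1 CPM and 69.1 and 57.1 CPM. Scrublet calls as given above moved with these levels too, and so did depth in all but the FAKi *Ppy* or *Pyy* carriers. The part of depth and scrublet calls was not tested.

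**Figure D4:**
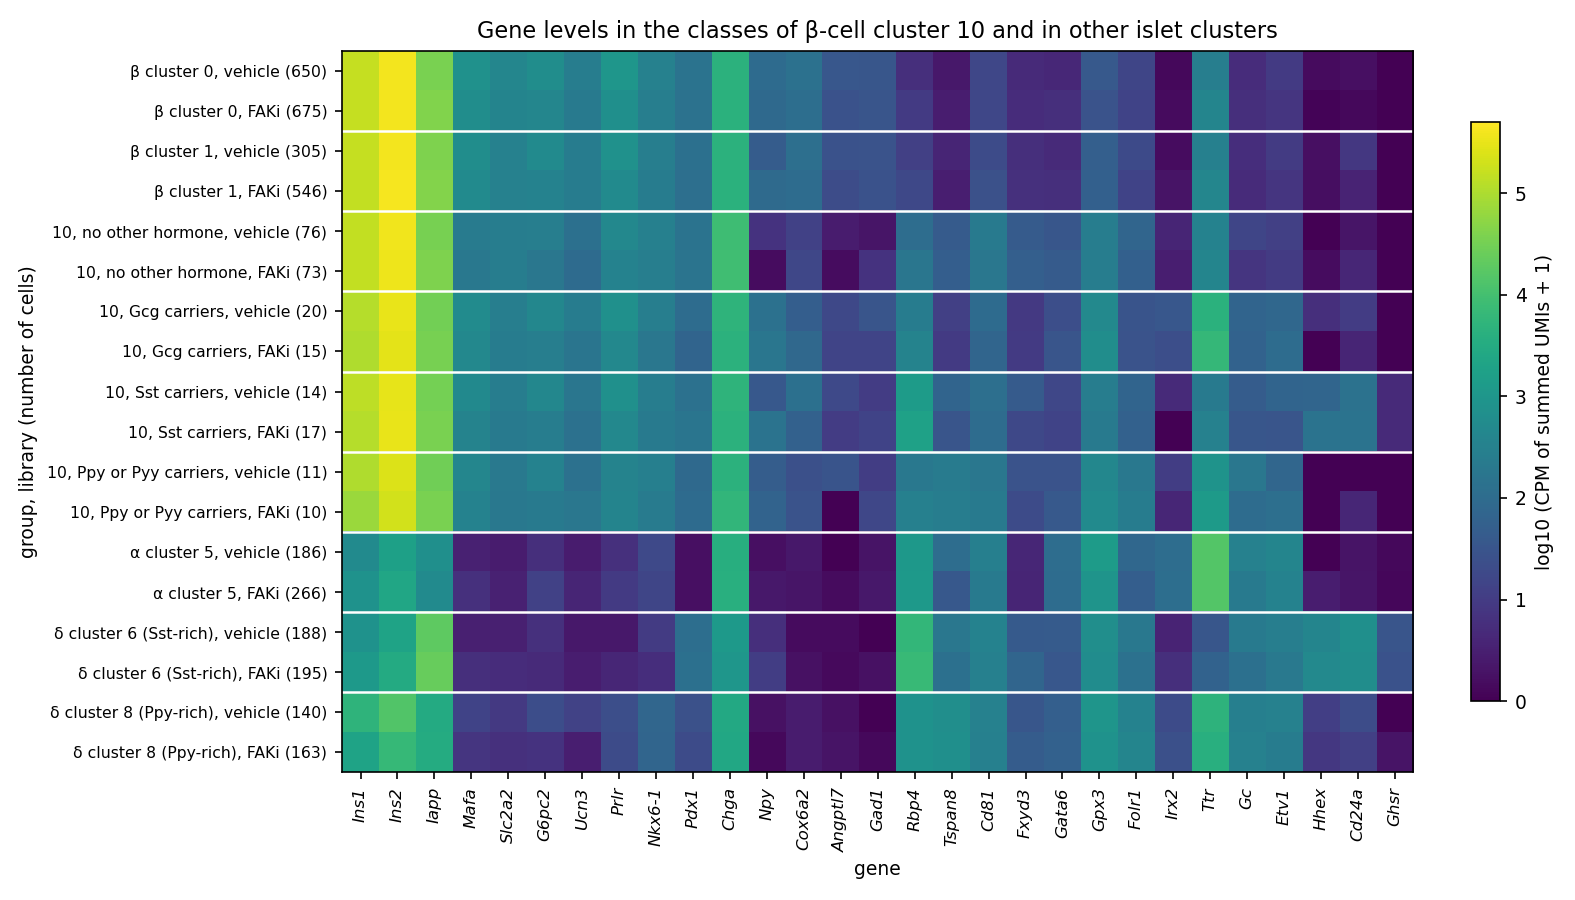
Level of β-, α-, δ- and PP-cell genes (colour, log10 of CPM of summed UMIs plus 1) in cluster 0, cluster 1, the 4 classes of cluster 10 and 3 clusters of other endocrine cells, each by library with its number of cells. The carriers of cluster 10 combine the left-hand β-cell genes with genes of the matching cluster on the right, while the cells without another hormone share *Rbp4*, *Tspan8*, *Cd81*, *Fxyd3* and *Gata6* and are low in *Npy*, *Angptl7* and *Gad1*.

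The remaining 149 cells, 76 of the vehicle and 73 of the FAKi library, carried no other hormone, and they too differed from cluster 0. This class was defined after the values were seen and is a range below 10000 CPM, so its own hormone levels are set by the rule. In these cells 90 of 8919 genes tested (1.01%) were over 2-fold higher than in cluster 0 in both libraries and 61 (0.684%) over 2-fold lower, and 130 and 56 with CPM averaged over single cells. The clusters were drawn on the same genes, so all ratios between them are descriptions. Of the 111 genes over 2-fold higher in the whole of cluster 10 than in cluster 0, 62 were also among these 90 (55.9% of 111, 68.9% of 90). Of the 23 lower genes, 21 were among the 61 (91.3% of 23, 34.4% of 61).

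*Rbp4* stood at 109.3 and 174.1 CPM against 4.90 and 8.41 CPM in cluster 0, ratios of 22.3 (95% interval 17.6 to 28.4) and 20.7 (17.3 to 24.7). *Tspan8* stood at 42.4 and 50.1 CPM against 1.32 and 1.85 CPM, ratios of 32.0 (20.7 to 50.6) and 27.1 (18.9 to 39.6). *Cd81*, which encodes another tetraspanin and is known to mark immature or stressed β-cells, stood at 210.6 and 179.3 CPM against 15.3 and 15.1 CPM, ratios of 13.8 (11.9 to 16.01) and 11.8 (10.2 to 13.7). These 3 genes were also higher in every class of carriers than in cluster 0. *Fxyd3*, a regulator of the sodium pump, stood at 41.2 and 53.2 CPM against 3.66 and 4.27 CPM. *Gata6*, a transcription factor of pancreas development, stood at 32.6 and 42.4 CPM against 3.27 and 4.84 CPM, and the secreted glutathione peroxidase gene *Gpx3* at 254.7 and 256.7 CPM against 37.8 and 28.3 CPM. *Cpb2*, *Fxyd6*, *Smarca1* and *Ramp1* were 5.11 to 9.77 times higher.

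Among the genes lower in the same cells were some known from mature β-cells. Of the lists, 1 of 16 β-cell transcription factors tested, 4 of 20 genes for glucose sensing and secretion, 0 of 16 of granules and prohormone processing and 0 of 3 of insulin and amylin were over 2-fold lower, where the share of all genes tested was 0.684%. In lists of this size that share gives less than 1 gene, so counts of 0 and 1 are near the background. *Mafa*, the transcription factor that activates insulin transcription in mature β-cells, stood at 232.4 and 193.7 CPM against 775 and 620 CPM in cluster 0, and it was higher in each class of carriers (340 to 555 CPM) than in the cells without another hormone. The gene of the β-cell peptide urocortin 3 (*Ucn3*) stood at 124.8 and 99.7 CPM against 259.5 and 212.0 CPM, and that of the islet glucose-6-phosphatase (*G6pc2*) at 271.3 and 185.5 CPM against 627 and 421 CPM. The prolactin receptor gene *Prlr* stood at 468 and 334 CPM against 1012 and 684 CPM. *Npy*, encoding neuropeptide Y, was at 5.72 and 0.517 CPM against 95.9 and 89.9 CPM, while the *Gcg* carriers had 131.6 and 168.7 CPM, from 2 of 20 and 4 of 15 cells. *Angptl7*, encoding an angiopoietin-like secreted protein, was at 1.72 and 0.517 CPM against 34.2 and 26.2 CPM, from 3 and 1 UMIs. *Cox6a2*, a subunit of cytochrome c oxidase, was at 11.4 and 14.98 CPM against 131.4 and 114.5 CPM. *Gad1*, which makes the transmitter GABA, was at 1.14 and 5.68 CPM against 32.4 and 30.5 CPM, and the noncoding RNA *Plut*, transcribed beside *Pdx1*, at 10.9 and 12.4 CPM against 80.4 and 65.9 CPM. *Adam32*, *Rprml* and *Slc14a2* were also among the 8 lowest, with at most 2 UMIs in either library.

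Some other β-cell genes stood within 2-fold of cluster 0. The core β-cell transcription factor genes *Pdx1* (149.95 and 157.6 CPM against 147.2 and 138.8 CPM) and *Nkx6-1* (306 and 270 CPM against 325 and 277 CPM) stood close to cluster 0 in the cells without another hormone. Chromogranin A (*Chga*), a granule protein, stood at 8528 and 8759 CPM against 4558 and 4445 CPM, short of 2-fold. The 4 lower genes for glucose sensing and secretion were *G6pc2*, *Sytl4*, *Trpm5* and *Ucn3*, with 0 higher, and *Mafa* was the 1 β-cell transcription factor past 2-fold.

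The genes were read in different shares of the cells. After thinning to 5000 UMIs, *Cd81* was read in 53.1% and 51.4% of the cells without another hormone, in 6.96% and 6.96% of the cells of cluster 0 and in 84.6% and 80.9% of endothelial and immune cells, which express it. *Rbp4* was read in 35.9% and 32.9%, against 1.85% and 3.56% in cluster 0 and 3.44% and 5.78% in endothelial and immune cells (unthinned, 53.9% and 58.9% against 12.0% and 19.1%). *Tspan8* was read in 10.9% and 22.9% of the cells without another hormone, *Fxyd3* in 7.81% and 24.3% and *Gata6* in 15.6% and 15.7%, against 0.741 to 2.52% in cluster 0. In endothelial and immune cells the shares were 5.47% and 9.83% for *Tspan8*, within the interval of the vehicle cells without another hormone (4.51 to 21.2%), 1.62% and 1.16% for *Fxyd3* and 7.29% and 3.47% for *Gata6*. At least 2 of the 5 genes *Rbp4*, *Tspan8*, *Cd81*, *Fxyd3* and *Gata6*, picked after their values were seen, were read in 20 of 64 (31.2%, 20.2 to 44.1%) and 36 of 70 (51.4%, 39.2 to 63.6%) of these cells. In cluster 0 the shares were 0.618% and 1.04%, in cluster 1 2.63% and 2.47%, and in endothelial and immune cells 13.8% and 16.2%. *Mafa* was read in 54.7% and 42.9% of the cells without another hormone and in 95.1% and 93.6% of cluster 0. Thinning left out 12 and 3 cells of the class.

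Over the whole of cluster 10, 111 of 9097 genes tested (1.22%) were over 2-fold higher than in cluster 0 in both libraries and 23 (0.253%) over 2-fold lower. The hormones lead, with mean log2 ratios of 7.93 for *Pyy*, 7.62 for *Ppy*, 7.24 for *Sst* and 6.36 for *Gcg*, and other higher genes were *Rbp4* (5.78), *Tspan8* (4.71), *Cd81* (3.35) and *Gpx3* (3.25). The calcium buffer gene *Calb1* stood at 24.6 and 21.2 CPM against 2.12 and 2.01 CPM. *Rbp4* transcripts were again uneven, with 60.0% and 57.8% of its UMIs in 10 cells, while 10 cells held 25.6% and 29.2% of the *Cd81* UMIs. Among the lower genes were *Angptl7* (-2.09), *Arhgap36* (-1.997), *Rprml* (-1.86), *Cox6a2* (-1.78), *Gad1* (-1.70) and *Mafa* (361 and 265 CPM against 775 and 620 CPM).

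The scale of the CPM moved with the genes that enter the total. The median log2 ratio over all 11736 genes measured was 0.18 and 0.19. With the 20 most abundant genes left out of the CPM it was -0.07, and the genes past 2-fold became 81 higher and 72 lower (52.9% higher) in place of 111 and 23 (82.8% higher). Gene lists are therefore read against these medians.

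Of the 7 PP-cell genes tested, 6 were over 2-fold higher in cluster 10 (among them *Etv1*, *Folr1*, *Ppy*, *Pyy* and *Tspan8*), with list medians of 2.84 and 2.48. Of 4 δ-cell genes tested, 3 were (*Pyy*, *Rbp4* and *Sst*), and of 6 α-cell genes, 4 were (among them *Gc*, *Gcg* and *Ttr*). The share of all genes tested that were higher was 1.22%. All 8 genes that the study names for a transitional cluster were past 2-fold, but the study picked them on these samples, so they are not independent of the cluster. The 17 β-cell transcription factors had medians of 0.13 and 0.16, with *Mafa* alone past 2-fold, and the 16 genes of granules and prohormone processing had medians of 0.19 and 0.24 with 0 past 2-fold. Both of these medians were near that of all genes, also with the 20 most abundant genes left out (-0.11 and -0.10, against -0.07 for all genes). Insulin and amylin had medians of -0.25 and -0.29.

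Lists on cell state differed in how far they stood from cluster 0. Of 19 genes of endoplasmic reticulum stress and folding tested and 12 of FAK and focal adhesion, 0 were past 2-fold either way, which is near the background of 1.22% higher and 0.253% lower genes. *Ptk2*, which encodes FAK, stood at 14.9 and 10.46 CPM in cluster 10 and 10.77 and 10.26 CPM in cluster 0. Of 15 immediate early genes, which are switched on quickly by many stimuli, *Klf4* alone was past 2-fold, though 14 and 15 of the 15 stood above 0 with medians of 0.52 and 0.96, against 0.18 and 0.19 for all genes. Against cluster 1 their medians were 0.73 and 1.42, where those of all genes were 0.27 and 0.27. *Atf3*, *Egr1*, *Klf4* and *Zfp36* were over 2-fold higher there, as were 1.5% of all genes tested. Of 13 antioxidant and metallothionein genes tested, *Gpx3*, *Prdx4* and *Txnip* were past 2-fold against cluster 0. The progenitor gene *Neurog3* had 15 and 5 UMIs in cluster 10, and *Aldh1a3*, known from dedifferentiated β-cells, had 5 and 3 UMIs.

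Digestive enzyme transcripts also stood between clusters 0 and 1. All 13 acinar markers tested were over 2-fold higher in cluster 10 than in cluster 0, and all 14 tested were over 2-fold lower than in cluster 1. The shares of all genes tested were 1.22% and 0.506%. The 16 markers summed to 2493 and 1926 CPM in cluster 10, 217 and 419 CPM in cluster 0 and 11319 and 9680 CPM in cluster 1. Within cluster 10 the sum was 427 and 1017 CPM in the cells without another hormone and 4655 and 3369 CPM in the carriers, and 10 cells held 53.0% and 43.7% of it. Acinar transcripts thus moved with the carried hormones, and their part in the result was not tested. The summed markers of other cell types stood above cluster 0 in both libraries, by different amounts. The 8 endothelial markers summed to 25.8 and 15.2 CPM, against 7.51 and 7.31 CPM in cluster 0. The 10 immune markers summed to 93.7 and 74.8 CPM against 53.5 and 43.8 CPM, although 5 of them, among these the pan-leukocyte gene *Ptprc*, had 0 UMIs in each library. The 8 stromal markers summed to 50.1 and 9.51 CPM against 6.05 and 3.86 CPM, and 10 cells held 91.2% and 83.3% of their UMIs. The 10 ductal markers summed to 631 and 603 CPM against 440 and 356 CPM. Of 7 tested, *Spp1* was over 2-fold higher, with 56.0% of its FAKi UMIs in 1 cell. The 5 Schwann cell markers summed to 13.8 and 12.0 CPM against 12.1 and 9.85 CPM. The part of these cell types in the results was not tested.

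Against cluster 1, cluster 10 had 98 of 6521 genes (1.5%) over 2-fold higher in both libraries and 33 (0.506%) over 2-fold lower. Without the 20 most abundant genes in the CPM these became 55 higher and 50 lower. Among the higher genes were again *Sst* (mean log2 ratio 6.35), *Ppy* (6.34), *Pyy* (6.29), *Gcg* (4.88), *Rbp4* (4.83) and *Tspan8* (4.29), then *Gc* (2.91), *Dbpht2* (2.89), *Cd81* (2.83), *Fxyd3* (2.62) and *Gata6* (2.61). For *Gcg* the libraries differed, with log2 ratios of 6.10 and 3.66, as cluster 1 was at 148 CPM with vehicle and 942 CPM with FAKi. The 8 lowest were digestive enzymes of the acinar cell, from *Cpa1* (-2.46) and *Cpb1* (-2.45) to *Ctrb1* (-2.26). *Cpb1*, a carboxypeptidase, stood at 61.5 and 73.5 CPM in cluster 10 and at 358 and 385 CPM in cluster 1.

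Between the FAKi and the vehicle cells of cluster 10, 11 of 5314 genes tested were over 2-fold higher (0.207%) and 11 over 2-fold lower (0.207%). With CPM averaged over single cells the counts were 29 and 58, and without the 20 most abundant genes in the CPM 11 and 17. With 1 library per condition, a difference between the mice, the pools or the library preparations and an effect of the treatment cannot be told apart. The β-cell hormones were close to even. The ratio of FAKi to vehicle was 0.980 for *Ins1*, 0.987 for *Ins2* and 1.19 for *Iapp*, and it was 1.21 for *Sst*, 1.16 for *Gcg*, 0.799 for *Ppy* and 0.792 for *Pyy*. *Mafa* had a ratio of 0.733 (interval 0.671 to 0.801) in cluster 10 and 0.800 in cluster 0, *Prlr* of 0.700 and 0.676, and *G6pc2* of 0.623 and 0.672. For these 3 genes of mature β-cells the direction was thus the same in cluster 10 and in cluster 0. *Rbp4* had a ratio of 1.43 in cluster 10 and 1.72 in cluster 0.

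*Nnat*, encoding neuronatin, which takes part in insulin processing, was the highest, with 86 vehicle and 310 FAKi UMIs, 25.2 and 98.2 CPM, and a ratio of 3.90 (3.06 to 5.02). Of its UMIs in cluster 10, 65.1% and 71.0% lay in 10 cells. *Nnat* was also higher in clusters 0 (2.68) and 1 (2.55). Heat shock genes made up a further group. *Hspb1* stood at 20.2 and 75.4 CPM, *Hspa1b* at 145.2 and 360.4 CPM, *Dnaja1* at 234.5 and 499 CPM and *Hspa1a* at 359 and 749 CPM. Their ratios were 3.73 (2.85 to 4.96), 2.48 (2.23 to 2.76), 2.13 (1.95 to 2.32) and 2.09 (1.95 to 2.24), against 1.03, 1.18, 1.18 and 1.07 in cluster 0. Of 14 heat shock genes in a list made after these values were seen, 14 stood above 0 on the log2 scale in cluster 10, with a median of 0.78 against -0.03 for all genes. *Hspb1* rested on few cells, with 82.6% and 79.8% of its UMIs in 10 cells, while *Dnaja1* was spread wider, at 36.7% and 27.9%. *Hspa1a* stood higher in the FAKi library in other islet cells too, at 1057 and 2439 CPM in the *Sst*-rich δ-cell cluster and 512 and 813 CPM in the main α-cell cluster. These genes encode chaperones that refold damaged proteins, and what moved them was not tested.

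Other genes over 2-fold higher in the FAKi cells were *Phlda1* (2.61, 1.80 to 3.86), *Ovol2* (2.56), *Pdzd8* (2.27), *Cwc22* (2.18), *Hhex* (2.14, 1.46 to 3.18) and *Car15* (2.06, 1.70 to 2.51). *Hhex* followed the *Sst* carriers, which held 82 of its 83 FAKi UMIs. *Cwc22*, a splicing factor gene, had similar ratios of 1.88 and 1.83 in clusters 0 and 1. For *Car15*, 10 cells held 78.2% of the FAKi UMIs.

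Among the genes lower in the FAKi cells were *4930539E08Rik* (0.233, 0.145 to 0.362), *Apoe* (0.253, 0.161 to 0.384), *Msln* (0.271, 0.188 to 0.382), *H2-Q7* (0.304), *Snhg11* (0.365), *Pla2g1b* (0.378) and *Hsd17b4* (0.380), and with smaller differences *Clps*, *Gadd45b* and *Gm10320*. Several rested on few cells. In the vehicle library 10 cells held 94.0% of the UMIs of *4930539E08Rik*, 85.0% of those of the apolipoprotein gene *Apoe* and 93.5% of those of the mesothelin gene *Msln*, while those of the peroxisomal enzyme gene *Hsd17b4* (36.4%) were spread wider. *Snhg11*, a noncoding RNA, stood at 97.2 and 35.5 CPM and was lower in clusters 0 and 1 as well (0.572 in both).

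**Figure D5:**
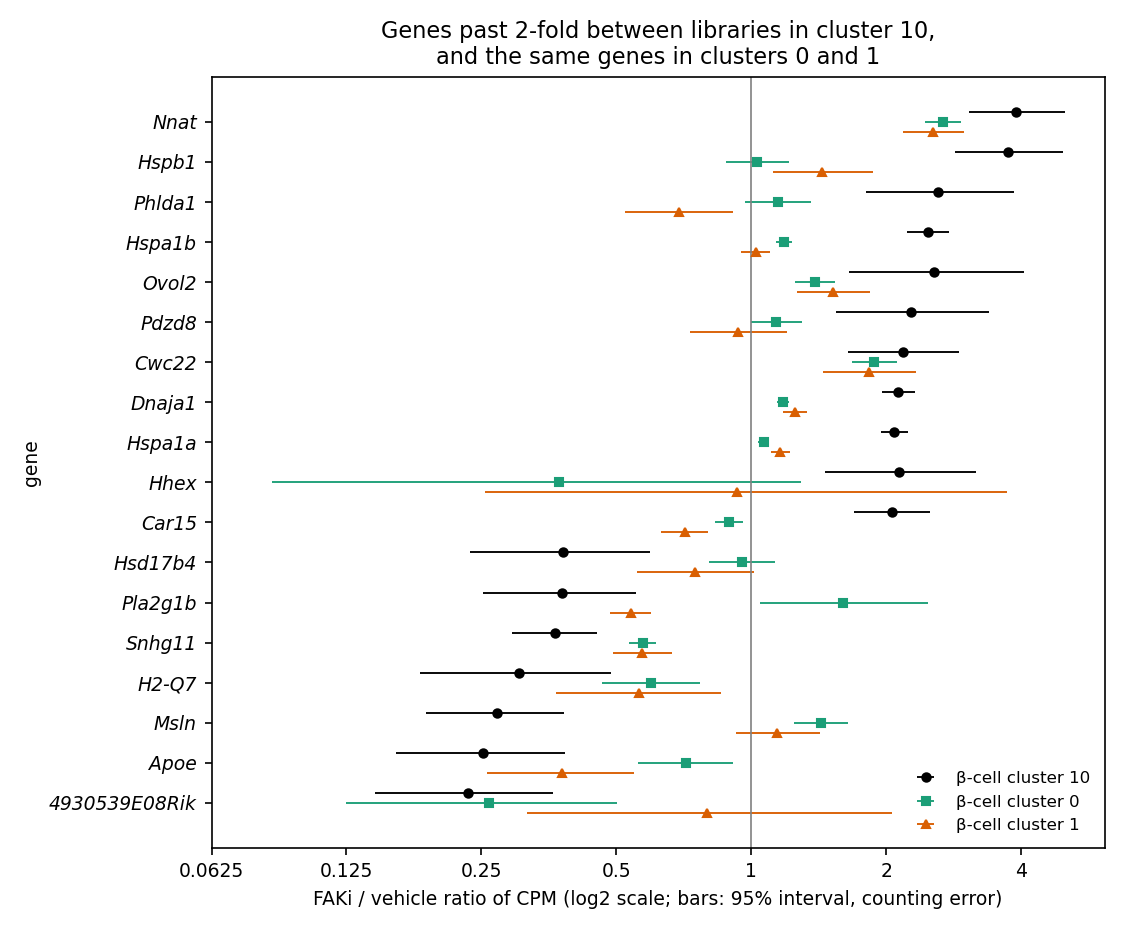
Ratio of FAKi to vehicle CPM (log2-scaled axis) of the 11 higher genes and 7 of the 8 lowest genes of cluster 10, with the same genes in clusters 0 and 1 and bars for the 95% interval of counting error. The heat shock genes *Hspb1*, *Hspa1b*, *Dnaja1* and *Hspa1a* lie past 2 in cluster 10 and between 1.02 and 1.44 in the other clusters, while *Nnat* lies past 2 in all 3.

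In the cells without another hormone, 22 of 3163 genes (0.696%) were over 2-fold higher and 10 (0.316%) over 2-fold lower in the FAKi library. With CPM averaged over single cells the balance turned, to 34 higher and 48 lower. *Nnat* had 22 and 181 UMIs (ratio 7.43, 4.76 to 12.1). *Hspa1b* had a ratio of 3.10 (2.64 to 3.65), *Dnaja1* of 2.85 and *Dnajb1* of 2.84. After thinning to 5000 UMIs, *Hspa1b* was read in 20.3% (11.3 to 32.2%) of the vehicle and 65.7% (53.4 to 76.7%) of the FAKi cells of this class. In cluster 0 it was read in 34.8% and 50.1%, and in endothelial and immune cells in 50.8% and 64.2%. Of the 12 acinar markers tested in this class, 9 were over 2-fold higher in the FAKi library, among them *Try5*, though 10 cells held 72.3% and 57.7% of the summed acinar CPM. Over all of cluster 10 the direction depended on the measure. In summed UMIs the 14 acinar markers measured had a median log2 ratio of -0.27, with 2 of them above 0 and *Clps* over 2-fold lower. The median cell, in contrast, had a summed acinar level of 213 CPM with vehicle and 454 CPM with FAKi, and *Clps* was read in 41.3% and 62.6% of the cells. Outside cluster 10 the acinar sum was higher in the FAKi library in cluster 0 and lower in cluster 1, as given above. The median cell of cluster 1 went the other way, at 8356 CPM with vehicle and 8921 CPM with FAKi. Thinned reads of *Prss2*, a trypsinogen gene, were found in 38.9% and 54.9% of endothelial and immune cells. The 5 genes *Rbp4*, *Tspan8*, *Cd81*, *Fxyd3* and *Gata6* were all short of 2-fold between the libraries, with a median log2 ratio of 0.36 against -0.04 for all genes.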

How the data were processed

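Single cells of 2 islet libraries were profiled by droplet-based 3′ RNA-seq. The authors counted UMIs with Cell Ranger on mm10, per the submitters' processing notes, aggregated the libraries, removed cells of low gene number or at least 8% mitochondrial counts in Seurat 3.1, and clustered them after integration. The deposited counts are raw UMI counts of 19945 genes, and the percent of mitochondrial counts per cell was computed by the authors (highest 7.999%). The labels give 8832 vehicle and 8437 FAKi cells as used for sequencing, and the table holds 3776 and 3183. In it 23 gene names had become dates, and 0 columns of other samples were found. Depth per cell is in the report.

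The members and lists were chosen with earlier results of these data known. Cells were taken by the deposited cell type and cluster. UMIs were summed per group and library and given as CPM. Ratios carry exact conditional binomial and shares Clopper-Pearson 95% intervals. Log2 ratios use a pseudocount of 1 CPM. A gene was tested against 2-fold if the compared groups held 100 or more of its UMIs and at least 10% of the cells of either group had a UMI. To count as past 2-fold it needed this share of cells in the higher group. For cluster comparisons a gene had to pass in both libraries. List medians use genes with at least 20 UMIs. Named were list members and, per comparison, the 12 highest and 8 lowest genes past 2-fold. Some genes that this rule or the panel names are not reported here. Of 283 genes in 24 lists, 280 were in the table. Genes outside this rule (the class panel, the heat shock list, the 5-gene set and the comparisons of cells without another hormone) were added after values were seen. Gene positions are from GENCODE vM21 (GRCm38). Scrublet was run on each library to mark doublets, and marked cells were kept. Cells were thinned with seed 0. Alternatives were another filter on counts or detection, other scalings, a pseudocount of 10 CPM, other hormone levels, and subsets of cells. The calculations were tested on simulated data and ran on scanpy 1.11.5, matplotlib 3.10.9, pandas 2.3.3, scipy 1.17.1, numpy 2.4.6 and python 3.11.15.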

Additional observations from a re-analysis of the deposited data

Results flagged for a closer look

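For 4 genes the FAKi and vehicle cells differed one way in cluster 10 and the other way in another β-cell cluster, with 1 library per condition, so the difference between clusters was not tested. *Phlda1* had a FAKi to vehicle ratio of 2.61 in cluster 10 and 0.690 in cluster 1. *Car15* had 2.06 in cluster 10, 0.893 in cluster 0 and 0.711 in cluster 1, and 10 cells held 78.2% of its FAKi UMIs in cluster 10. *Msln* had 0.271 in cluster 10 and 1.43 in cluster 0, with 93.5% of its vehicle UMIs in 10 cells. *Pla2g1b*, a secreted phospholipase of acinar cells, had 0.378 in cluster 10 and 1.60 in cluster 0. In cluster 10, 62.3% of its vehicle and 62.2% of its FAKi UMIs lay in 10 cells. Its log2 ratio turned to 0.26 in the cells without another hormone.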

How the results depend on the processing

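No paired analysis was possible because the shared replicate numbers are taken to be sequencing lanes of 1 library per condition. The counts are summed over them. A class holds 10 to 76 cells per library, and thinning to 5000 UMIs left out 12 and 3 of the cells without another hormone.

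The counts of genes past 2-fold moved with the filter on low counts. Against cluster 0, 134 genes passed, 224 with at least 20 UMIs, 45 with at least 500 and 64 with a pseudocount of 10 CPM. Against cluster 1, 131 passed, and 276, 45 and 73 under these settings. Between the libraries in cluster 10, 22 passed, and 159, 5 and 11, while the mean over cells gave 87 (29 higher and 58 lower). In the cells without another hormone, 32 passed between the libraries and 82 with the mean over cells (34 higher and 48 lower). The differences follow from the number of genes tested for the count filters, and for the others the cause was not tested.

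List medians past 2-fold numbered 6 against cluster 0 and 3 in the cells without another hormone, 6 against cluster 1 and 2 in those cells, and 1 between the libraries, with 3 in those cells, 3 without marked doublets, 2 in cells under 5% mitochondrial counts and 0 with a pseudocount of 10 CPM. Of the 20 named genes against cluster 1, 12 passed in the cells without another hormone. Of the 19 between the libraries, 8 passed in those cells, 8 in cells under 5% mitochondrial counts and 9 with a pseudocount of 10 CPM. In the cells without another hormone, 3 values turned: the median of hormones and peptides against cluster 1 (log2 -0.076), *Gcg* against cluster 1 (-0.87), which the choice of cells fixes, and *Pla2g1b* between the libraries (0.26).

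Carriers of *Ppy* were 11.4% of cluster 10, 16.5% at 3000 CPM and 7.63% at 30000 CPM. Carriers of *Pyy* were 11.0%, 21.6% and 5.93% at these levels, and 17.4% above the 99th percentile of endothelial and immune cells (25.6% with vehicle and 8.70% with FAKi). Carriers of any other hormone were 36.9%, and 30.1% without marked doublets. With *Ins1* and *Ins2* left out of the total they were 39.8% (43.0% with vehicle and 36.5% with FAKi). Against cluster 0, against cluster 1 and between the libraries, 133, 130 and 21 genes passed without cells under 1000 detected genes, and 134, 134 and 22 without the detection filter.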
